A study of Mus musculus with 36 samples.

Results

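The genes described here are 46 chromatin regulators that are not subunits of the MLL3 or MLL4 complexes, chosen by name. The rule uses no measured value, but the list was drawn up with earlier results of these data known. All 46 were found among the 24284 genes of the FPKM tables. Of these, 44 were also found in the tables of counts per transcript, and all 44 passed the expression filter, among 12466 genes tested. Chd7 and Setd1b had no matched transcript there and were followed in the FPKM libraries only. By role, 11 were Polycomb genes, 11 wrote, read or removed histone acetylation, 8 were remodelling genes, 7 were demethylases, 4 acted on H3K9, 4 were other H3K4 writers or their partners and 1, Dot1l, wrote H3K79 methylation.

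The study followed mouse cells with and without MLL4 (gene Kmt2d), an H3K4 mono-methyltransferase of enhancers, in cells that all lacked MLL3 (gene Kmt2c). The mutant was MLL3-/-;MLL4-/-, called DKO, and its control was MLL3-/-;MLL4flox/flox, called f/f, so no group carried wild-type MLL3. RNA was sequenced in 12 libraries. Embryoid bodies, grown for 4 days without LIF, and embryonic stem cells (ESC), grown with LIF on irradiated feeder cells, had 2 libraries per genotype. Cells taken 20 days after immortalised embryonic fibroblasts received lentiviral Oct4, Sox, Klf4 and c-Myc, and the fibroblasts themselves, had 1 library per genotype. The labels do not say whether libraries of a group came from separate cultures or whether the DKO cells were 1 clone, so p-values measure the spread between these libraries, which may be technical. Strain was not given for the RNA samples.

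Chromatin regulators write, read or erase marks on histones or move nucleosomes. Polycomb complex PRC2 methylates H3K27 and PRC1 ubiquitylates H2A, and both keep developmental genes silent in ESC. Acetyltransferases and deacetylases set the acetylation found at active enhancers and promoters, where MLL3 and MLL4 add H3K4 mono-methylation. SETDB1 with its partner TRIM28 methylates H3K9 and silences endogenous retroviruses in ESC. These genes are mostly expressed in many cell types, and their protein and activity were not measured here.

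The sequences just upstream of 4 genes are shown because these are the members that passed the test in DKO cells: Setdb1 and Kdm3a in ESC, Eed and Sirt1 on formation of bodies. Each is the 250 bases before the first listed start, read 5′ to 3′ in RefSeq's annotation of build GRCm38.p6, whereas the expression files used mm9. Capitals mark CG, the dinucleotide recognised by the CXXC domains of 2 proteins of the list, KDM2B and CXXC1.
Setdb1, chr3:95357203-95357452, minus strand: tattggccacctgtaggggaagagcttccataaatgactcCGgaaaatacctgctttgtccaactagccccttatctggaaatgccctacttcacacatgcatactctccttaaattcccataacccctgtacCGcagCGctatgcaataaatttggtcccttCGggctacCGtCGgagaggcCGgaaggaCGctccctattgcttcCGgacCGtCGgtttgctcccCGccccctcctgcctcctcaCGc
Kdm3a, chr6:71632918-71633167, minus strand: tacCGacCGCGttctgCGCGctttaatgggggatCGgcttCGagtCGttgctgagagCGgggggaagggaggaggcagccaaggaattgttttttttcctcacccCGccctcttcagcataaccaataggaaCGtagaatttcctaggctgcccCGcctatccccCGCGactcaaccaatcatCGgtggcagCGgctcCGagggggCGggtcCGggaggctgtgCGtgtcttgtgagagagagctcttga
Eed, chr7:89980977-89981226, minus strand: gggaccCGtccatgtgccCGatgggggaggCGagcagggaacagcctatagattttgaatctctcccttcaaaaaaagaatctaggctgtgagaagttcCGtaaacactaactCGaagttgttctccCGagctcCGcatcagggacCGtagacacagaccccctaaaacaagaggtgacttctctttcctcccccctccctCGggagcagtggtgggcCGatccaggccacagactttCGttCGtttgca
Sirt1, chr10:63339036-63339285, minus strand: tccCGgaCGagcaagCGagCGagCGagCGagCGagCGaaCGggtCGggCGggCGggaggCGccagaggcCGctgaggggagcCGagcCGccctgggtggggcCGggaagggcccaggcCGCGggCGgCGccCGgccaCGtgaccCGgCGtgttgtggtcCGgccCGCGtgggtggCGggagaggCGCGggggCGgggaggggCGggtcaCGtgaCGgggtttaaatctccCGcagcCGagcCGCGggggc
The Setdb1 window held 13 CG, the Kdm3a window 20, the Eed window 12 and the Sirt1 window 39. Of 9753 tested genes with a window, 65.7% held at least as many CG as Setdb1, 36.2% as Kdm3a, 69.4% as Eed and 2.98% as Sirt1. Windows were matched for 36 of the 46 members, and their median was 20.5 CG, with a lowest of 0 for Kdm4c and a highest of 44 for Crebbp and Dot1l; the median over tested genes was 16. The GC box, GGGCGG on either strand, was in 26 of the 36 windows (72.2%) and in 61.7% of the windows of tested genes. It was in the windows of Setdb1, Kdm3a and Sirt1, and these letters were not in the Eed window. The E-box, CACGTG, a palindrome, was in 3 of the 36 windows (8.33%), Sirt1's among them, and in 8.76% of those of tested genes. A match is a description of letters and not of a bound site.

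Depth ranged between 11346075 and 38168589 reads per library, lowest in the 2 body libraries of the second set. The libraries of ESC and bodies came in 2 sets deposited in different units (RPKM per transcript in the first, FPKM per gene in the second), and levels are compared only within a set. The targeted gene Kmt2d had 14.3 RPKM and 10.1 FPKM in DKO bodies against 16.4 RPKM and 15.4 FPKM in f/f bodies, and 8.89 RPKM and 10.7 FPKM in DKO ESC against 13.5 RPKM and 18.7 FPKM in f/f ESC. It went the other way at day 20 (24.8 FPKM labelled DKO, 12.9 FPKM labelled f/f) and in fibroblasts (23.5 FPKM labelled DKO, 14.4 FPKM labelled f/f). Whole-gene values do not show whether the deleted exons were present, so these values do not check the labels. Summed over 10 markers of pluripotent cells, Pou5f1 and Nanog included, the level was 1428 to 4458 in the 8 body and ESC libraries. It was 10.5 FPKM in the day 20 library labelled DKO, 40.3 FPKM in that labelled f/f, and 7.31 and 7.52 FPKM in the fibroblast libraries. Of the f/f day 20 sum, Pou5f1 (Oct4) made up 19.8 FPKM and Sox2 9.36 FPKM. Oct4 and Sox were also delivered by lentivirus, and reads of delivered and endogenous genes were not separated. Of the DKO day 20 sum, Nanog made up 9.68 FPKM, against 7.17 FPKM in DKO and 7.26 FPKM in f/f fibroblasts. The day 20 libraries thus held the defining markers of pluripotent cells at low levels (Pou5f1 0.118 FPKM labelled DKO, 19.8 FPKM labelled f/f), against their label of induced pluripotent cells, and are called day 20 cells here. In bulk samples, fewer cells of a type and less RNA per cell cannot be told apart.

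In DKO ESC, 2 of 44 members fell relative to f/f ESC and none rose: Setdb1, the H3K9 methyltransferase, and Kdm3a, a demethylase that removes H3K9 mono- and di-methylation. The members called lower made up 4.55% of the list, where 2.67% of all genes tested were lower and 1.57% higher (limma, Benjamini-Hochberg adjusted p under 0.05). Setdb1 had 23.1 RPKM and 23.8 FPKM in DKO ESC, against 34.3 RPKM and 38.4 FPKM in f/f ESC. The difference was -0.61 ± 0.10 on the log2(value + 1) scale (SE, 2 libraries per group), a 1.53-fold lower level with an adjusted p of 0.0299. Kdm3a had 17.8 RPKM and 17.9 FPKM in DKO ESC, against 32.6 RPKM and 26.3 FPKM in f/f ESC. Its difference was -0.68 ± 0.12 (SE) with an adjusted p of 0.0378. For both genes the DKO libraries were below the f/f libraries in each set. Neither call was reached when any 1 of the 4 ESC libraries, or either f/f body library, was left out (adjusted p up to 0.186 for Setdb1 and 0.235 for Kdm3a, with differences of at least 0.56 and 0.57 in size); both calls remained without either DKO body library.

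**Figure D1:**
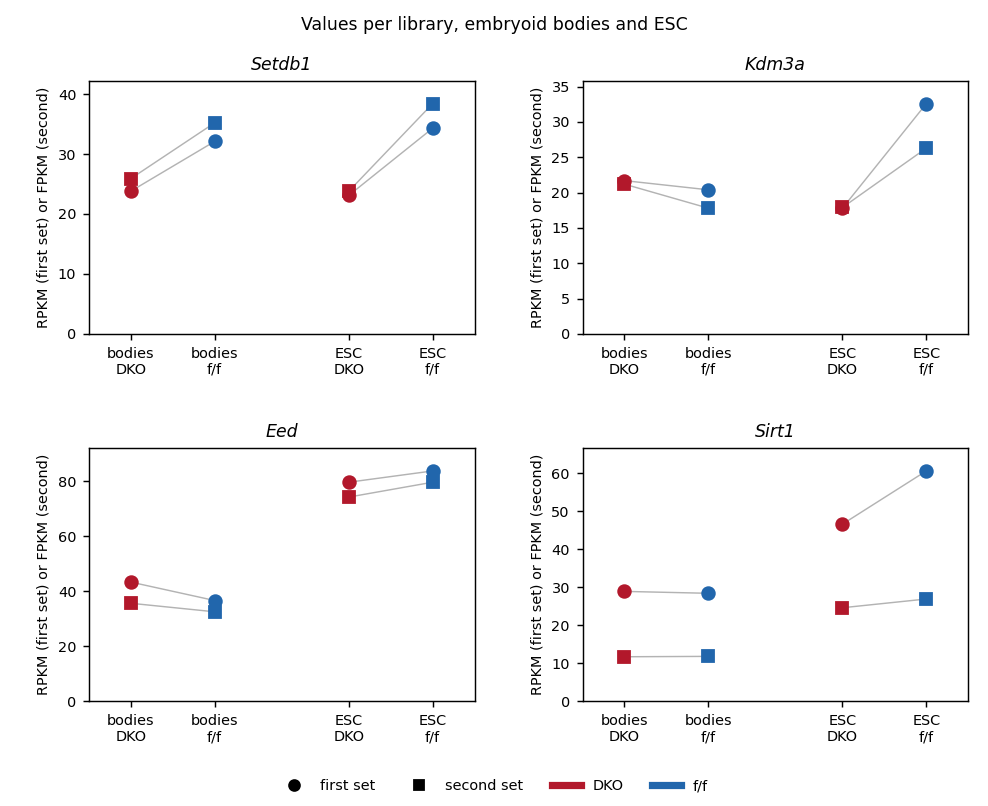
Level of Setdb1, Kdm3a, Eed and Sirt1 in each embryoid body and ESC library; circles are the first set in RPKM and squares the second set in FPKM, joined within a set, with DKO in red and f/f in blue. Setdb1 was lower in DKO than in f/f cells in each set at either stage, Kdm3a was lower in DKO ESC and higher in DKO bodies in each set, and Eed and Sirt1 were lower in bodies than in ESC in each genotype and set.

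Across the whole list, 26 of 44 members (59.1%) were lower in DKO than in f/f ESC in both sets, against 35.1% of all genes tested and 50.9% of 161 other genes of the same pathways. The sum over 10 pluripotency markers was also lower in DKO ESC in each set. It was 2104 RPKM and 3121 FPKM, against 3013 RPKM and 4458 FPKM in f/f ESC. The largest gap was that of Dppa5a, with 137.4 RPKM and 558.6 FPKM in DKO ESC against 1025 RPKM and 1975 FPKM in f/f ESC. Of the 10 markers, 5 were lower and 3 higher in both sets, none called. The part of these markers in the members' values was not tested. The members' median difference was -0.13, against 0.02 over all genes, and 37 of the 44 differed by less than 0.5 in size. Nearest the threshold were 3 genes that were lower without passing it: Ehmt1, the partner of G9a in H3K9 di-methylation (-0.53 ± 0.11, adjusted p = 0.0558), Kdm4c, which removes H3K9 and H3K36 methylation (-0.57 ± 0.12, adjusted p = 0.0586), and the PRC2 accessory gene Phf19 (-0.96 ± 0.24, adjusted p = 0.0839). Kdm4c had 16.3 RPKM and 17.2 FPKM in DKO ESC, against 23.2 RPKM and 27.8 FPKM in f/f ESC. Ehmt1 had 16.3 RPKM and 18.1 FPKM in DKO ESC, against 22.4 RPKM and 28.4 FPKM in f/f ESC. Ehmt2 (G9a), the partner of Ehmt1, differed by 0.07 ± 0.14.

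The Polycomb core was not called in this comparison. Ezh2, the PRC2 methyltransferase, differed by 0.05 ± 0.11, Eed, which binds the mark it deposits, by -0.09 ± 0.10, and the third core subunit Suz12 by -0.19 ± 0.25. Mtf2, another PRC2 accessory gene, differed by -0.44 ± 0.16, and Ring1, an E3 ligase of PRC1, had the highest positive value of the whole list, 0.33 ± 0.15. None of the 11 acetylation genes was called. Kat2b, the acetyltransferase PCAF, differed by -0.67 ± 0.40 and the deacetylase Hdac1 by -0.35 ± 0.15, while Ep300 and Crebbp, which acetylate H3K27 at enhancers, differed by -0.19 ± 0.10 and 0.15 ± 0.12. Hdac1 read 8.64 to 15.6 RPKM in the first set and 112 to 139 FPKM in the second; how reads shared with near-identical copies were counted is not stated, so its values are uncertain. Among the remodelling genes, the largest differences were those of Smarcd1, a BAF subunit (-0.39 ± 0.12), and Mbd3, a NuRD subunit (-0.39 ± 0.12), neither called. Of the demethylases not yet named, Kdm5b, which removes H3K4 tri-methylation, differed by -0.53 ± 0.18, and Kdm1a (LSD1), which removes mono- and di-methylation of H3K4, by -0.04 ± 0.12. The other H3K4 writers and partners were not called either: Cxxc1, which brings SETD1 to CpG islands, differed by -0.40 ± 0.15 and Men1 (menin), a subunit of MLL1 and MLL2 complexes, by 0.20 ± 0.15. Trim28 differed by -0.21 ± 0.14 and Dot1l by -0.17 ± 0.11.

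**Figure D2:**
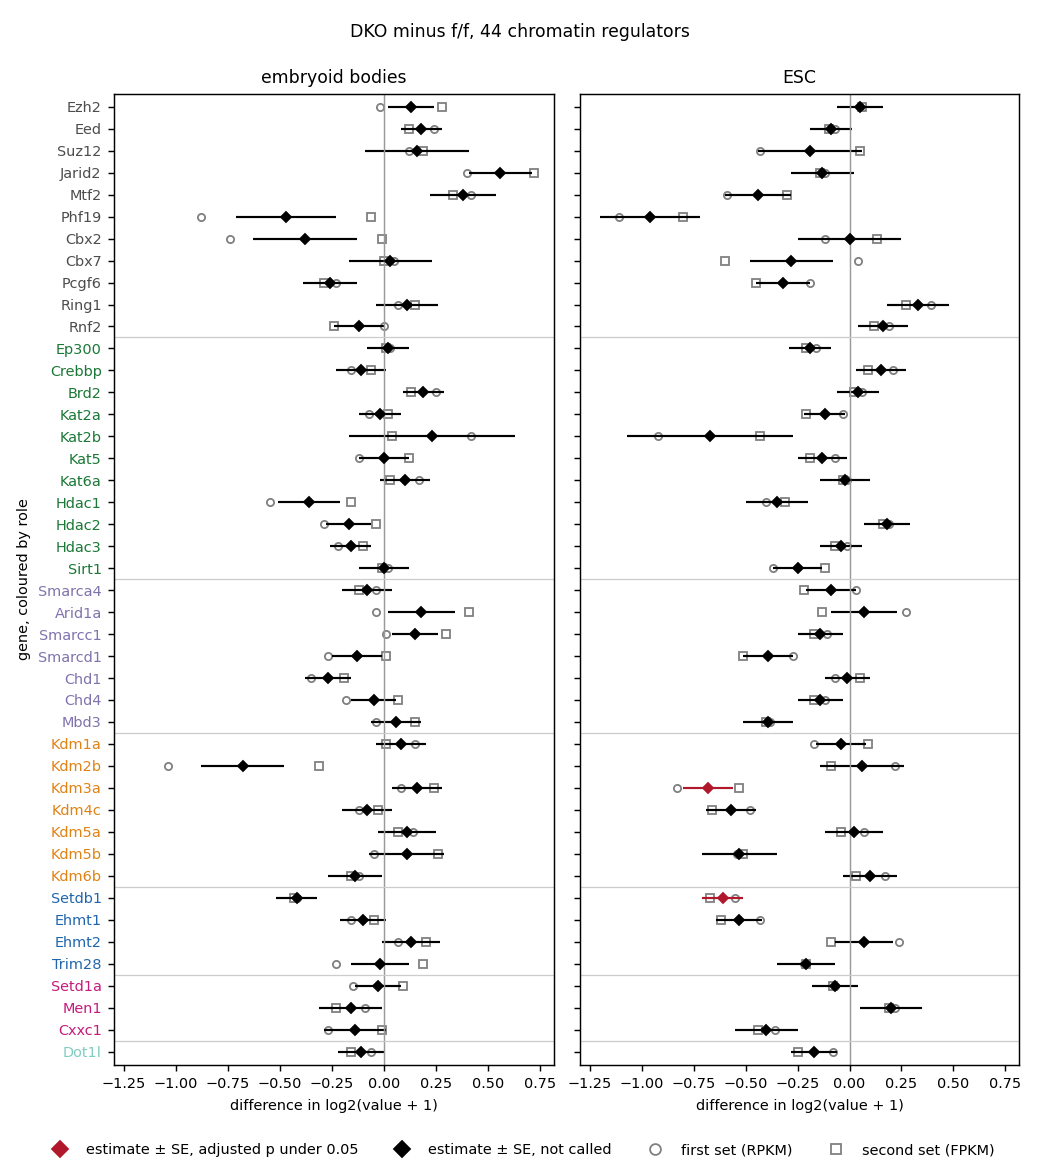
DKO minus f/f difference of 44 chromatin regulators in embryoid bodies (left) and ESC (right), as log2(value + 1); diamonds with bars are estimates ± SE from limma (red where the adjusted p was under 0.05), and open symbols the difference within each set. In ESC most estimates lie below 0 and those of Kdm3a and Setdb1 were called, and in bodies none was called.

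In DKO bodies none of the 44 members passed the test against f/f bodies, by limma or by edgeR, and 3 had an unadjusted p under 0.05. Over all genes 0.826% were higher and 3.61% lower. The median of the members was -0.02, against -0.01 over all genes, and 42 of the 44 differed by less than 0.5 in size. Lower in both sets were 17 of 44 members (38.6%), close to the 36.3% of all genes. Setdb1 again had lower values, 23.8 RPKM and 25.9 FPKM in DKO bodies against 32.1 RPKM and 35.2 FPKM in f/f bodies, a difference of -0.42 ± 0.10 that missed the threshold (adjusted p = 0.0702). Jarid2, which joins PRC2 and helps it bind, differed by 0.56 ± 0.15 (adjusted p = 0.099), with 78.6 RPKM and 70.6 FPKM in DKO bodies against 59.2 RPKM and 42.5 FPKM in f/f bodies. Kdm2b, which brings a PRC1 variant to CpG islands, differed by -0.68 ± 0.20 (adjusted p = 0.126). Its 2 sets were unequal, with 10.7 RPKM in DKO against 23.2 RPKM in f/f bodies of the first and 26.6 FPKM against 33.4 FPKM in the second. Without the DKO body library of the second set, Kdm2b alone was called (-1.01, adjusted p = 0.0327).

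The remaining groups were close to 0 in bodies. Besides Jarid2, the Polycomb gene with the largest difference was Phf19 (-0.47 ± 0.24). Among acetylation genes these were Hdac1 (-0.36 ± 0.15) and Kat2b (0.23 ± 0.40), and among remodelling genes Chd1 (-0.27 ± 0.11), a remodeller of transcribed genes in ESC, and Arid1a (0.18 ± 0.16), a BAF subunit. Kdm3a, called lower in DKO ESC, differed by 0.16 ± 0.12 in bodies. Ehmt2 (G9a) differed by 0.13 ± 0.14, Men1 by -0.16 ± 0.15, Cxxc1 by -0.14 ± 0.15 and Dot1l by -0.11 ± 0.11. The body libraries themselves differed in cell makeup. Summed over 8 markers of primitive streak and mesoderm, the level was 8.66 RPKM and 9.62 FPKM in DKO bodies against 168 RPKM and 180 FPKM in f/f bodies, and 6 of the 7 tested fell. The part of this difference in the members' values was not tested.

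Between stages, 2 of 44 members fell in DKO bodies relative to DKO ESC and none rose, with 0.626% of all genes lower and 0.201% higher. They were Eed and Sirt1, an NAD-dependent deacetylase. Eed had 43.3 RPKM and 35.6 FPKM in DKO bodies, against 79.6 RPKM and 74.2 FPKM in DKO ESC, a difference of -0.95 ± 0.10 (adjusted p = 0.0317). Sirt1 had 28.9 RPKM and 11.7 FPKM in DKO bodies, against 46.6 RPKM and 24.6 FPKM in DKO ESC, a difference of -0.84 ± 0.12 (adjusted p = 0.0477). In each set the body library was below the ESC library. Both calls were lost without any 1 of the ESC libraries, either f/f body library or the DKO body library of the second set (adjusted p up to 0.162 for Eed and 0.235 for Sirt1), while over all 8 such fits the differences stayed between -1.03 and -0.87 for Eed and between -0.99 and -0.69 for Sirt1. Without the DKO body library of the first set, Eed was called and Sirt1 was not (adjusted p = 0.0691).

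The other members differed by -0.61 to 0.55 between DKO bodies and DKO ESC, none called, and 12 of 44 (27.3%) were lower in both sets, against 25.1% of all genes. The ends of that range were Brd2, a BET reader of acetylated histones (-0.61 ± 0.10), and Cbx2, a PRC1 subunit with a chromodomain (0.55 ± 0.25). Among the rest, Trim28 differed by -0.47 ± 0.14 and Ehmt1 by 0.43 ± 0.11, Kat2b by -0.33 ± 0.40, Ring1 by 0.29 ± 0.15, Kdm3a by 0.25 ± 0.12 and Kdm4c by -0.19 ± 0.12. The largest values among remodelling genes were those of Chd4, the NuRD ATPase (0.20 ± 0.11), and the BAF ATPase Smarca4 (0.12 ± 0.12). Men1 differed by 0.17 ± 0.15, Cxxc1 by 0.16 ± 0.15 and Dot1l by -0.10 ± 0.11.

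In f/f bodies 8 of 44 members (18.2%) fell relative to f/f ESC and none rose, where 3.86% of all genes were lower and 8.13% higher. With median-of-ratios scaling the split over all genes was 809 lower and 765 higher in place of 481 and 1014, and all 9 members then called were lower. Of the 8, 3 belonged to PRC2: Eed, Mtf2 and Jarid2. Eed had 36.6 RPKM and 32.5 FPKM in f/f bodies, against 83.7 RPKM and 79.6 FPKM in f/f ESC (-1.22 ± 0.10, adjusted p = 0.0135). Mtf2 had 35 RPKM and 21.6 FPKM in f/f bodies, against 55.7 RPKM and 40.8 FPKM in f/f ESC (-0.77 ± 0.16, adjusted p = 0.0339). Jarid2 had 59.2 RPKM and 42.5 FPKM in f/f bodies, against 78.8 RPKM and 82.2 FPKM in f/f ESC (-0.67 ± 0.15, adjusted p = 0.0394). The fall of Jarid2 was unequal between sets, -0.41 in the first and -0.94 in the second. The other core genes were not called: Ezh2 differed by -0.33 ± 0.11 and Suz12 by -0.53 ± 0.25.

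Another 2 of the 8 were acetylation genes. Sirt1 had 28.4 RPKM and 11.8 FPKM in f/f bodies, against 60.6 RPKM and 26.9 FPKM in f/f ESC (-1.09 ± 0.12, adjusted p = 0.0135). Brd2 had 67 RPKM and 55 FPKM in f/f bodies, against 122 RPKM and 88.2 FPKM in f/f ESC (-0.77 ± 0.10, adjusted p = 0.0161). The last 3 were the demethylases Kdm3a and Kdm4c and the corepressor Trim28. Kdm3a had 20.4 RPKM and 17.8 FPKM in f/f bodies, against 32.6 RPKM and 26.3 FPKM in f/f ESC (-0.60 ± 0.12, adjusted p = 0.0312). Kdm4c had 15.8 RPKM and 14.9 FPKM in f/f bodies, against 23.2 RPKM and 27.8 FPKM in f/f ESC (-0.69 ± 0.12, adjusted p = 0.0236). Trim28, the corepressor that recruits SETDB1, had 364 RPKM and 332 FPKM in f/f bodies, against 519 RPKM and 589 FPKM in f/f ESC (-0.67 ± 0.14, adjusted p = 0.0322). All 8 were lower in the f/f body library of each set. The f/f ESC libraries entered this comparison and that of DKO with f/f ESC, so the low values of Kdm3a and Kdm4c in both share those 2 libraries.

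**Figure D3:**
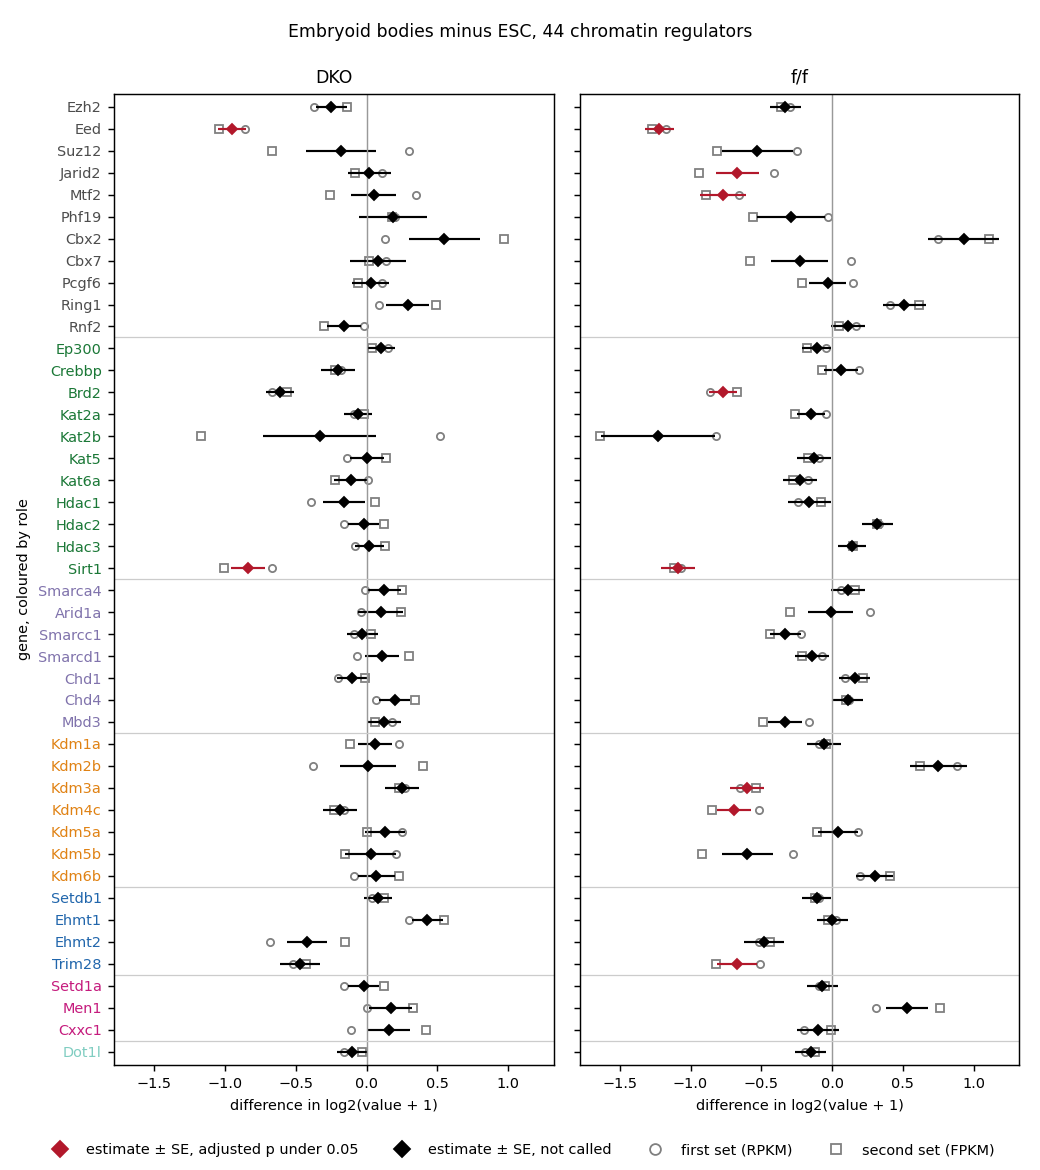
Embryoid bodies minus ESC difference of 44 chromatin regulators in DKO (left) and f/f (right) cells, as log2(value + 1); diamonds with bars are estimates ± SE from limma (red where the adjusted p was under 0.05), and open symbols the difference within each set. Eed and Sirt1 are red in both panels, and 6 more members are red in f/f, all below 0.

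Without any 1 of the 4 f/f libraries none of the 8 was called (adjusted p up to 0.239). Over the fits without 1 library their differences kept their sign, at -1.27 to -1.16 for Eed, -1.15 to -1.04 for Sirt1, -0.86 to -0.67 for Brd2 and, most spread, -0.90 to -0.45 for Jarid2. Leaving out either DKO ESC library, which only adds to the estimate of spread, left 5 called: Eed, Sirt1, Brd2, Mtf2 and Kdm4c. Leaving out either DKO body library gave 10, the 8 and, higher in f/f bodies, Kdm2b (0.75, adjusted p = 0.0238 and 0.0239) and Cbx2 (0.93, adjusted p = 0.0195 and 0.0196). With all libraries Kdm2b (0.75 ± 0.20, adjusted p = 0.0598) and Cbx2 (0.93 ± 0.25, adjusted p = 0.0623) were not called. Cbx2 had 18.5 RPKM and 16.9 FPKM in f/f bodies, against 10.6 RPKM and 7.29 FPKM in f/f ESC. In both sets 27 of 44 members (61.4%) were lower in f/f bodies, against 30.3% of all genes, and their median was -0.14 against 0.06. Other members not called included Kat2b (-1.23 ± 0.40), Kdm5b (-0.60 ± 0.18), Men1 (0.53 ± 0.15), Ring1 (0.51 ± 0.15, higher in both sets), Ehmt2 (-0.48 ± 0.14), Smarcc1 and Mbd3 (each -0.33, SE 0.11 and 0.12) and Hdac2 (0.32 ± 0.11). Setdb1 differed by -0.11 ± 0.10, Cxxc1 by -0.10 ± 0.15 and Dot1l by -0.15 ± 0.11.

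Markers of fibroblasts and feeders moved with the stage comparisons. Their sum over 10 genes was 16.9 RPKM and 28.8 FPKM in DKO bodies against 51.3 RPKM and 234 FPKM in DKO ESC, and 27 RPKM and 69.3 FPKM in f/f bodies against 37.5 RPKM and 273 FPKM in f/f ESC. In the fibroblast libraries it was 2668 and 3266 FPKM. There Eed, Sirt1, Mtf2, Jarid2, Kdm3a, Kdm4c and Trim28 stood below every body library of the second set. Brd2 did not, with 67.3 FPKM in DKO and 57.6 FPKM in f/f fibroblasts, against 60.3 FPKM in DKO and 55 FPKM in f/f bodies. The sum over 10 pluripotency markers was 2114 RPKM and 1428 FPKM in DKO bodies against 2104 RPKM and 3121 FPKM in DKO ESC, and 1746 RPKM and 1488 FPKM in f/f bodies against 3013 RPKM and 4458 FPKM in f/f ESC. The DKO sums of the first set hid a rise of Dppa5a, 648.8 RPKM in bodies against 137.4 RPKM in ESC. Of the 10 markers, 6 were lower and 0 higher in both sets in DKO bodies, and 9 lower and 1 higher in f/f bodies. The part of these markers in the members' values was not tested.

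The genotype difference itself did not pass a test of change between stages for any member. The difference in bodies minus that in ESC was called for 0 of 44 members and for 0% of all genes in either direction, by limma and by edgeR; 8 members and 1704 genes had an unadjusted p under 0.05. The 8 were Kdm3a, Kdm4c, Kdm5b, Kdm2b, Mtf2, Jarid2, Mbd3 and Ehmt1. Kdm3a came closest, at 0.84 ± 0.17 (adjusted p = 0.139): its genotype difference was 0.16 in bodies and -0.68 in ESC. Kdm2b had the opposite sign, -0.74 ± 0.28 (adjusted p = 0.338), with -0.68 in bodies and 0.06 in ESC. That 2 members fell in DKO bodies and 8 in f/f bodies is therefore not shown to be a difference between genotypes.

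At day 20 and in fibroblasts each genotype had 1 library, so differences there have no replicate check and no p-value. At day 20, 1 of 46 members was at least 2-fold higher in the library labelled DKO and 2 were at least 2-fold lower, on the log2(FPKM + 1) scale, where 7.73% of all genes were higher and 10.1% lower. Dot1l had 20.5 FPKM in the library labelled DKO and 9.49 FPKM in that labelled f/f. Pcgf6, a subunit of a PRC1 variant that silences germline genes in ESC, had 2.75 FPKM in DKO and 7.13 FPKM in f/f. Hdac1 had 27.4 FPKM in DKO and 63.2 FPKM in f/f, uncertain for the reason given above. Just short of the 2-fold line was Ezh2, with 17.6 FPKM in DKO and 8.38 FPKM in f/f (0.99). Of the 11 Polycomb genes, 8 were higher in the library labelled DKO, with a median of 0.55, where 50.6% of all genes were higher and their median was 0.01. Suz12 read 23.5 FPKM in DKO and 12.2 FPKM in f/f, Cbx2 8.31 FPKM in DKO and 3.91 FPKM in f/f, and Cbx7, a PRC1 chromodomain subunit, 4.12 FPKM in DKO and 1.73 FPKM in f/f. With a pseudocount of 0.1 the count past 2-fold was 8 of 46, where 25.1% of all genes were past it in either direction; this adds Ezh2 (1.06), Phf19 (1.29), Cbx2 (1.07), Cbx7 (1.21) and Chd7 (1.66). The sum over 10 cell-cycle genes moved the same way, 276 FPKM in DKO and 180 FPKM in f/f. Of these genes Mki67, Mcm5 and Pcna were slightly lower in DKO and the rest higher. The sum over the fibroblast markers moved the other way, 9616 FPKM in DKO and 13189 FPKM in f/f. Its largest gap was that of Col1a1, 921.1 FPKM in DKO and 6061 FPKM in f/f. Of these markers Col1a2, Col3a1 and Fap were higher in DKO and the rest lower. The part of these markers was not tested.

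In fibroblasts 2 of 46 members were at least 2-fold higher in the library labelled DKO and 1 was at least 2-fold lower, where 3.5% of all genes were higher and 4.67% lower. Dot1l had 22.3 FPKM in DKO and 10.5 FPKM in f/f fibroblasts, close to its day 20 values. Pcgf6 had 1.57 FPKM in DKO and 5.27 FPKM in f/f fibroblasts. Chd7, a remodeller of enhancers, had 1.83 FPKM in DKO and 0.269 FPKM in f/f fibroblasts. Dot1l and Pcgf6 thus stood past 2-fold with the same sign in both pairs of libraries, although Dot1l came to 0.97 under quantile scaling in fibroblasts. Day 20 cells were derived from fibroblasts, so the second pair is not an independent repeat of the first. The share of all genes past 2-fold with the same sign in both pairs was not counted. In ESC the same genes differed by -0.17 ± 0.11 (Dot1l) and -0.32 ± 0.13 (Pcgf6), neither called. The library labels are not checked by Kmt2d, which was higher in the libraries labelled DKO.

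**Figure D4:**
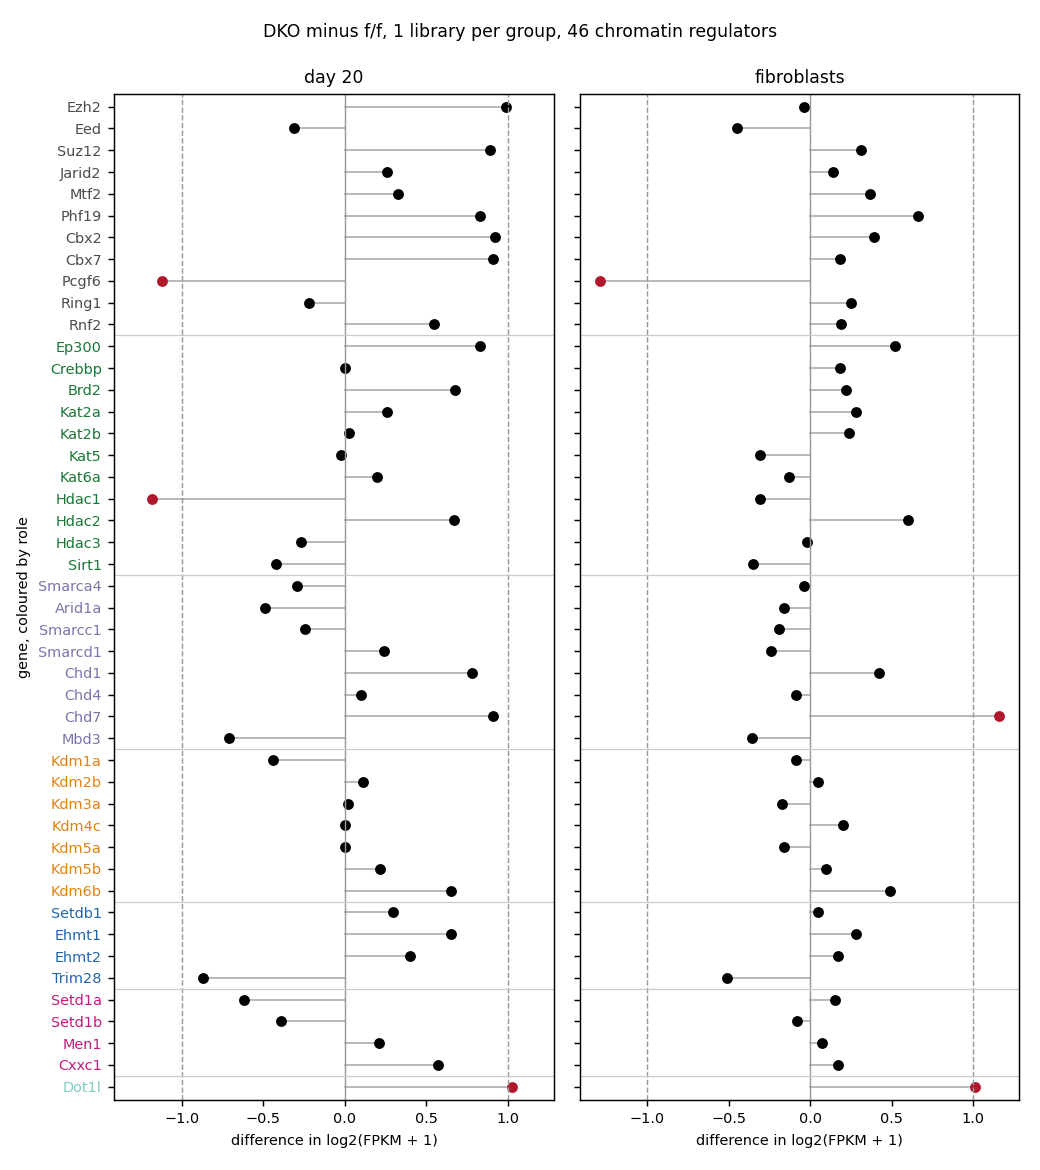
DKO minus f/f difference of 46 chromatin regulators at day 20 (left) and in fibroblasts (right), as log2(FPKM + 1) from 1 library per group; red points lie at or past 2-fold (dashed lines). Dot1l and Pcgf6 are past the lines in both panels, as are Hdac1 at day 20 and Chd7 in fibroblasts.

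Between day 20 and fibroblasts, 1 of 46 members was at least 2-fold higher and 2 at least 2-fold lower in the libraries labelled DKO, with 3.74% of all genes higher and 3.44% lower. Cbx7 had 4.12 FPKM at day 20 and 1.27 FPKM in fibroblasts, Phf19 2.46 FPKM at day 20 and 8.13 FPKM in fibroblasts, and Hdac1 27.4 FPKM at day 20 and 62.7 FPKM in fibroblasts. In the f/f libraries none was at least 2-fold higher and 2 were at least 2-fold lower, with 6.17% of all genes higher and 5.2% lower. Ezh2 had 8.38 FPKM at day 20 and 25.3 FPKM in fibroblasts, and Phf19 0.951 FPKM at day 20 and 4.76 FPKM in fibroblasts. All 11 acetylation genes were lower at day 20 in f/f, between -0.66 and -0.08, and 10 of 11 in DKO, where 49.3% of all genes were lower in f/f and 51.3% in DKO. Of 37 other acetylation genes, 22 were lower at day 20 in DKO and 19 in f/f. Among the other members, 7 of 8 remodelling and 4 of 4 H3K9 genes were lower in f/f, and 5 of 8 and 3 of 4 in DKO. Over all 46 members, 31 were lower in f/f and 28 in DKO, with 3 of 11 Polycomb genes lower in each. The cell-cycle sum was also lower at day 20, 276 FPKM against 527 FPKM in fibroblasts labelled DKO and 180 FPKM against 501 FPKM in those labelled f/f, and its part was not tested. The f/f day 20 library held 19.8 FPKM of Pou5f1, delivered and endogenous reads not separated. It had 4.06 FPKM of Jarid2, 15.2 FPKM of Eed and 82.1 FPKM of Trim28, all nearer to fibroblasts than to ESC.

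Set against ESC of the second set, fibroblasts had many members at least 2-fold lower: 16 of 46 (34.8%) in DKO, with 18.8% of all genes lower, and 21 of 46 (45.7%) in f/f, with 21.9% of all genes lower. At least 2-fold higher were 1 member in DKO, with 16% of all genes higher, and 0 in f/f, with 18.4% higher. The median over members was -0.50 in DKO and -0.92 in f/f, and over all genes -0.10 and -0.12; median-of-ratios scaling moved the medians of all genes to -0.01 and -0.04. Polycomb members made up 6 of the 16 and 8 of the 21. Polycomb genes outside the list were mixed. Of 28, 5 were at least 2-fold lower and 10 higher in DKO, and 5 lower and 9 higher in f/f (medians -0.03 and -0.15). Cbx7 had 1.27 FPKM in DKO fibroblasts against 51.7 FPKM in DKO ESC, and 1.00 FPKM in f/f fibroblasts against 78.7 FPKM in f/f ESC. Jarid2 had 4.38 FPKM in DKO fibroblasts against 74.7 FPKM in DKO ESC, and 3.89 FPKM in f/f fibroblasts against 82.2 FPKM in f/f ESC. Eed had 8.26 FPKM in DKO fibroblasts against 74.2 FPKM in DKO ESC, and 11.6 FPKM in f/f fibroblasts against 79.6 FPKM in f/f ESC. Pcgf6, Mtf2 and Ezh2 were also past 2-fold in both genotypes, and Suz12 and Cbx2 in f/f. Phf19 was the single member past 2-fold upward, with 8.13 FPKM in DKO fibroblasts against 1.81 FPKM in DKO ESC.

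Outside Polycomb, the H3K9 corepressor Trim28 had 59.4 FPKM in DKO fibroblasts against 510 FPKM in DKO ESC, and 84.8 FPKM in f/f fibroblasts against 589 FPKM in f/f ESC, the highest levels of the list in ESC. Chd7 had 1.83 FPKM in DKO fibroblasts against 16.4 FPKM in DKO ESC, and 0.269 FPKM in f/f fibroblasts against 17 FPKM in f/f ESC. The BAF subunits Arid1a and Smarcd1 were 3.85-fold and 3.79-fold lower in DKO fibroblasts and 3.78-fold and 4.55-fold lower in f/f fibroblasts. Of the demethylases, Kdm1a, Kdm2b, Kdm4c and Kdm5b were past 2-fold lower in both genotypes, Kdm5b with 21.5 FPKM in DKO fibroblasts against 76 FPKM in DKO ESC and 20 FPKM in f/f fibroblasts against 108.6 FPKM in f/f ESC. Sirt1 was past 2-fold lower in both genotypes, Smarcc1 in DKO, and Kat2a, Setdb1, Setd1a and Dot1l in f/f. Setd1a, which writes H3K4 tri-methylation, had 12.7 FPKM in f/f fibroblasts against 29.5 FPKM in f/f ESC. Kdm4c and Smarcc1 in DKO, and Suz12 and Cbx2 in f/f, came to between -0.99 and -0.91 under another scaling. Of 44 remodelling genes outside the list, 4 were past 2-fold lower and 4 higher in DKO, and 7 and 6 in f/f. Of 16 other demethylases, 3 were lower and 1 higher in DKO, and 4 and 1 in f/f. Of 37 other acetylation genes, 7 were lower and 3 higher in DKO, and 11 and 1 in f/f. Of 17 other H3K9 genes, 2 were lower and 1 higher in DKO, and 7 and 0 in f/f.

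Over the 8 FPKM libraries, 26 of 46 members had all 4 day 20 and fibroblast libraries below all 4 body and ESC libraries, as did 29.3% of all genes. Only 1 member, Crebbp, had them all above, as did 22.1% of all genes; its lowest day 20 or fibroblast value was 12.7 FPKM and its highest body or ESC value 12.4 FPKM. The other 19 overlapped. The 26 held 7 of 8 remodelling genes (all except Mbd3), 6 of 11 Polycomb genes, 5 of 11 acetylation genes, 4 of 7 demethylases, Setdb1 and Trim28, Setd1a and Dot1l. Some of the 26 were also separated by little. The highest day 20 or fibroblast value was 22.3 FPKM for Dot1l, 26.5 FPKM for Ep300 and 17.4 FPKM for Kat5. Their lowest body or ESC values were 22.4, 26.8 and 17.9 FPKM. Hdac1, whose values are uncertain, was among the 26. Within PRC1, the E3 ligase Rnf2 ranged over 16.8 to 30.8 FPKM and Ring1 over 6.15 to 11.1 FPKM with no separation, and Cbx7 spanned 1.00 to 78.7 FPKM. The flattest gene was Kdm5a, an H3K4 demethylase, at 9.19 to 10.8 FPKM, while its paralogue Kdm5b ranged from 20 to 108.6 FPKM. Kat6a (11.8 to 16.1 FPKM), Hdac3 (31.6 to 43.2 FPKM) and Setd1b (5.94 to 8.83 FPKM) also varied little.

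**Figure D5:**
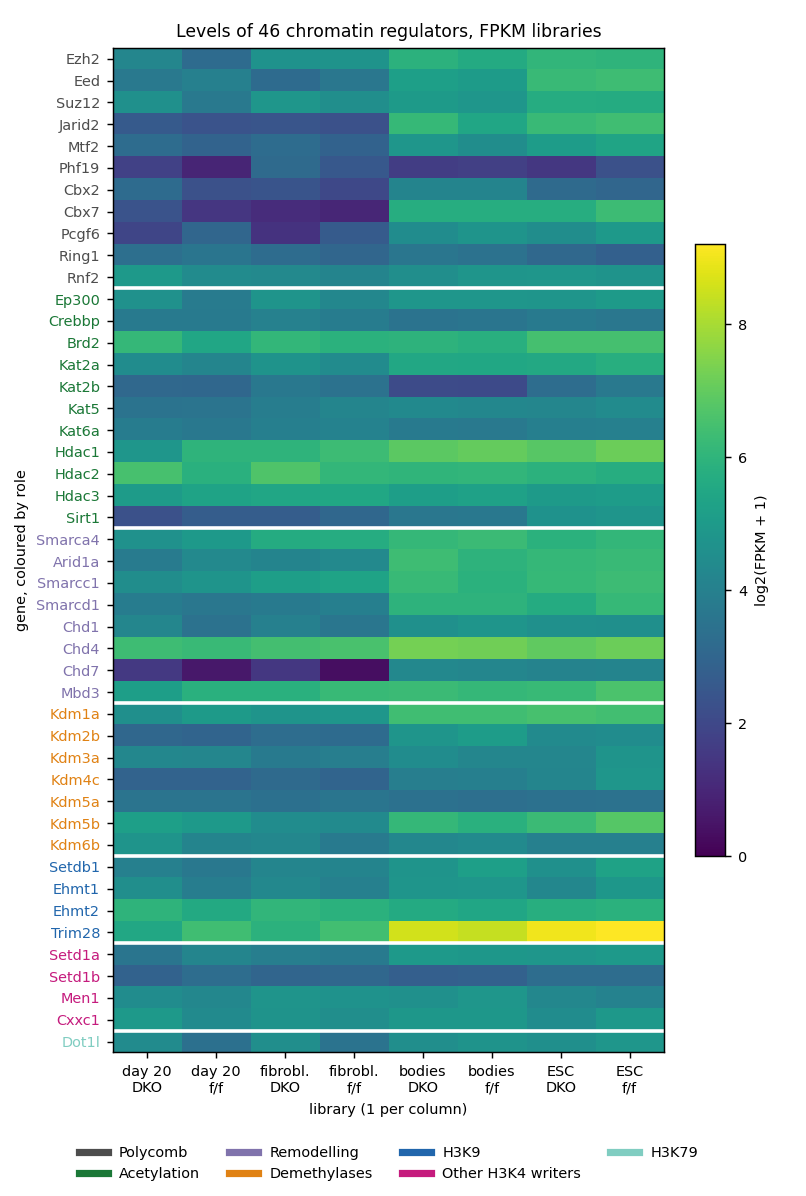
Level of each of 46 chromatin regulators (rows, coloured by role) in the 8 FPKM libraries (columns), as log2(FPKM + 1). Cbx7, Jarid2, Eed, Chd7 and Trim28 are darker at day 20 and in fibroblasts than in bodies and ESC, and Kdm5a has nearly the same shade throughout.

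The other genes of the same pathways, 161 tested of 173 listed, give the surroundings of these results. In DKO against f/f ESC, 4.97% of them were called lower and 1.86% higher, against 2.67% and 1.57% of all genes. In DKO ESC, 8 fell and 3 rose relative to f/f ESC; without any 1 of the 4 ESC libraries none of the 161 was called. The demethylase cofactor Rcor2, a partner of LSD1, had 30.2 RPKM and 30 FPKM in DKO ESC, against 70.3 RPKM and 62.7 FPKM in f/f ESC (-1.12 ± 0.10, adjusted p = 0.0116). The heterochromatin protein Cbx1 had 67.3 RPKM and 75.2 FPKM in DKO ESC, against 98.8 RPKM and 115 FPKM in f/f ESC (-0.58 ± 0.09, adjusted p = 0.0299). Of 37 acetylation genes 4 fell, among them Taf5l (-0.97), Hdac5 (-0.93) and Sin3b (-0.58). Of 42 remodelling genes Daxx (-0.62) and Actl6a (-0.55) fell and Smarcd3 rose (1.41). Jmjd1c, of the Kdm3 family, rose by 0.84, with 61.3 RPKM and 53.6 FPKM in DKO ESC against 37 RPKM and 26.8 FPKM in f/f ESC, and the Dot1l partner Mllt10 rose by 0.91. None of 25 other Polycomb genes was called. In DKO bodies 3 fell (1.86%, against 3.61% of all genes) and none rose. The 3 were Pphln1, a subunit of the HUSH silencing complex (-1.62), Bcl7c (-0.81) and Sin3b (-0.55).

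In DKO bodies relative to DKO ESC none of the 161 passed, with 28 at an unadjusted p under 0.05. In f/f bodies relative to f/f ESC 15 rose (9.32%, against 8.13% of all genes) and 6 fell (3.73%, against 3.86%). With median-of-ratios scaling 11 rose and 20 fell, and without any 1 of the 4 f/f libraries none was called. The risers with the largest differences were Pphln1 (2.09), Setd7, an H3K4 mono-methyltransferase (1.66), the deacetylase Hdac7 (1.62) and Bcorl1, a PRC1 variant subunit (1.42). Of the other Polycomb genes, Yaf2 (1.06) and Phc2 (0.85) rose too and Epop, a PRC2 accessory gene, fell (-1.03). The acetyltransferase Kat6b (-2.12), the SAGA subunit Taf5l (-1.18) and Cdyl2 (-2.36) fell. Pphln1 had 60.6 RPKM and 55.9 FPKM in f/f bodies, against 15 RPKM and 11 FPKM in f/f ESC. Psip1, Nsd2 and Smarce1 were among the other genes that rose, by 0.59, 0.75 and 0.91.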

How the data were processed

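RNA-seq tables of 12 mouse libraries were used; 24 chromatin and input samples of the series were not analysed here. Per the file headers, 4 ESC and body libraries (first set) were deposited by the authors as counts and RPKM per RefSeq transcript, and the other 8 as FPKM per gene. The submitters' processing notes name build mm9, with bedtools 2.16 and SICER 1.1 for the first set and CASAVA 1.8.2 and SICER for the others; neither the labels nor the headers give an aligner, an annotation or a strand setting, so antisense and overlapping genes cannot be separated. For the first set, each gene took the value of its most-read transcript, and 22456 genes were joined over both sets. FPKM steps gave relative depth: 91 to 93.5% of low values of single-transcript genes were whole reads within 0.02 reads. Differences were fitted with limma 3.58.1 (R 4.3.3; trended empirical Bayes, two-sided) on log2(value + 1) over the 8 ESC and body libraries, with the 4 groups and the set as terms, for 12466 genes with a mean of at least 1; 3 residual and 3.27 prior degrees of freedom were available. A member was called at a Benjamini-Hochberg adjusted p under 0.05 over all these genes. The set term pairs the libraries: deviations from group means correlated at 0.864 to 0.954 within a set. Single libraries were compared as differences of log2(FPKM + 1), past 2-fold at 1 or more in size, over 12970 genes with a mean of at least 1 FPKM; this scale understates changes of low genes. Called members are named with every value, otherwise the 2 largest differences of each role group; of the other pathway genes, at most 4 per list. The alternatives were a pseudocount of 0.1, no filter, median-of-ratios and quantile scaling, summed transcripts, no set term, no trend, edgeR 4.0.16 and leaving out each library. For edgeR the first set entered as counts. Reads of the second set were rounded from FPKM, estimated depth and the length of the most-read first-set transcript. They are approximate for genes with several transcripts. The members and gene lists were chosen with earlier results of these data known.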

Additional observations from a re-analysis of the deposited data

How the results depend on the processing

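No called difference changed sign. Of the members not called, 15 to 25 of 44 changed sign under some alternative in DKO against f/f ESC and bodies, and 7 to 22 in bodies against ESC, each 0.38 or less in size; the median of members in DKO against f/f bodies (-0.02) was 0.07 with quantile scaling, 0.01 with edgeR and 0.03 without the first f/f body library. The count of members called lower in DKO than in f/f ESC (2) was 0 with no filter on low values, 0 with no replicate block (no term for the set), 1 with quantile scaling, 1 with no trend and 4 with edgeR, which added Kdm4c and Ehmt1; leaving out each library gave 0 to 2. Over all genes the calls of that comparison (529) fell likewise, to 0 with no filter, no replicate block or without 3 of the 4 ESC libraries in turn, and 9 without the first DKO ESC library. For DKO against f/f bodies (0) leaving out each library gave 0 to 1. For DKO bodies against ESC (2) the count was 0 with no filter, no replicate block or no trend, 1 with quantile scaling, and 0 to 1 leaving out each library. For f/f bodies against ESC (8) it was 0 with no filter or no replicate block, and 0 to 10 leaving out each library. In that comparison quantile scaling called 6, without Jarid2 and Trim28, and the fit with no trend called 7, without Jarid2. Without the filter 22456 genes both shared the adjustment and entered the fit. Eed in f/f bodies against ESC then had a limma adjusted p of 0.0605 in place of 0.0135, at the same difference (-1.22). The part of the adjustment and that of the fit were not separated. In the fit with no replicate block the 2 deposit units enter the spread. A group left with 1 library is assumed to vary like the others. At day 20 the count of members past 2-fold between genotypes (3) was 8 with a pseudocount of 0.1 and 8 with quantile scaling, where 25.1% and 17.7% of all genes were past it. The pseudocount of 0.1, summed transcripts and edgeR kept all 12 calls of single members. Depth limits Chd7 in f/f fibroblasts and Phf19 in the f/f day 20 library, which were under 1 FPKM, and single-library values have no replicate error.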
